A study of Homo sapiens with 6 samples.

Results

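The Mediator complex was examined through its 33 genes: every row whose symbol is MED followed by a number, with or without a final L, plus the kinases CDK8 and CDK19 and their cyclin CCNC. These are 33 of the 19785 genes in the table, each present as 1 row. Of the 33, 32 had a mean of at least 1 over the 6 libraries and were tested, and MED12L was below that minimum. The study sequenced total RNA from SET-2 cells, an established megakaryoblastic line labelled as leukemia blasts of secondary AML, and compared 2 groups of 3 biologic replicates. The first is SET-2 OTX P/R, a derivative labelled as persister resistant to OTX in a study of resistance to BET inhibitors, and the second is the parental SET-2 line. The labels do not spell out OTX. Both were harvested as untreated cultures in exponential phase in RPMI1640 medium with fetal bovine serum, so the comparison is between the lines in the absence of drug. The derivative has a single name and is not said to be a clone or a pool, so changes that came with resistance and other differences between the lines cannot be told apart.

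Mediator is a large assembly that carries signals from transcription factors bound at enhancers to RNA polymerase II at promoters. Its head and middle modules contact the polymerase, its tail receives most transcription factors, MED14 is the scaffold that holds the parts together, and a detachable kinase module of CDK8 or CDK19, cyclin C, MED12 or MED12L and MED13 or MED13L regulates that contact. MED27 to MED30 sit where head and tail meet and are given here as a group of their own.

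The values are the authors' quantile-normalized StringTie abundances, which are corrected for gene length, so levels of different genes may be compared on this scale. Such values order the genes of a library and hold neither total RNA nor sequencing depth, which is unknown. The sums of the libraries lay between 419375 and 419437. Libraries of the same line correlated at 0.986 to 0.988 on the log2(value + 1) scale and libraries of different lines at 0.948 to 0.949, and no library stood apart. The megakaryoblast markers, the defining genes of this line, were present, with summed values of 710.0 to 714 in OTX P/R libraries and 649 to 670.0 in parental libraries, although PF4 was listed at 0 in all 6. Of 9 such markers tested, 6 were higher and 1 was lower, beside 18.6% and 17.5% of all tested genes. The lower marker was ITGA2B, which averaged 138 in OTX P/R cells and 216 in parental cells. Of 6 lymphoid markers, MS4A1 was listed at 0 and the 3 tested were lower, beside 17.5% of all tested genes. Among these 3, CD3D averaged 0.593 in OTX P/R cells and 5.24 in parental cells. It reached the minimum mean of 1 only through the parental libraries, so it could be called only as lower. The list summed to 35.8 to 37.9 in OTX P/R libraries against 73.3 to 80.5 in parental libraries, most of it NKG7. The 6 stromal and epithelial markers were all under the minimum, with sums of 2.54 to 3.12 in OTX P/R libraries and 0.292 to 1.28 in parental libraries. The part of these markers in the results below was not tested, and in bulk RNA fewer cells of a type and less RNA per cell cannot be told apart.

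Most Mediator genes differed little between the lines. With limma over all 10741 tested genes and an adjusted p under 0.05 as the threshold, 3 of the 32 tested subunits were higher in OTX P/R cells, 6 were lower and 23 did not pass. The 9 that passed are 28.1% of the tested subunits, while 36.1% of all tested genes passed. By direction, 9.38% of the subunits were higher, beside 18.6% of all tested genes, and 18.8% were lower, beside 17.5%. The median log2 fold change was -0.03 over the subunits and 0.02 over all tested genes, and the median size of the change was 0.19 and 0.21. The 6 subunits that fell were MED24, MED7, MED10, MED1, MED21 and MED18, and the 3 that rose were MED30, MED8 and MED9. Calls with a change of 1.5-fold or more were MED24, MED7 and MED10, which is 9.38% of the subunits, beside 14.6% of all tested genes. For 17 of the 32 subunits, or 53.1%, every OTX P/R library lay on the same side of every parental library, beside 51.6% of all tested genes.

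**Figure D1:**
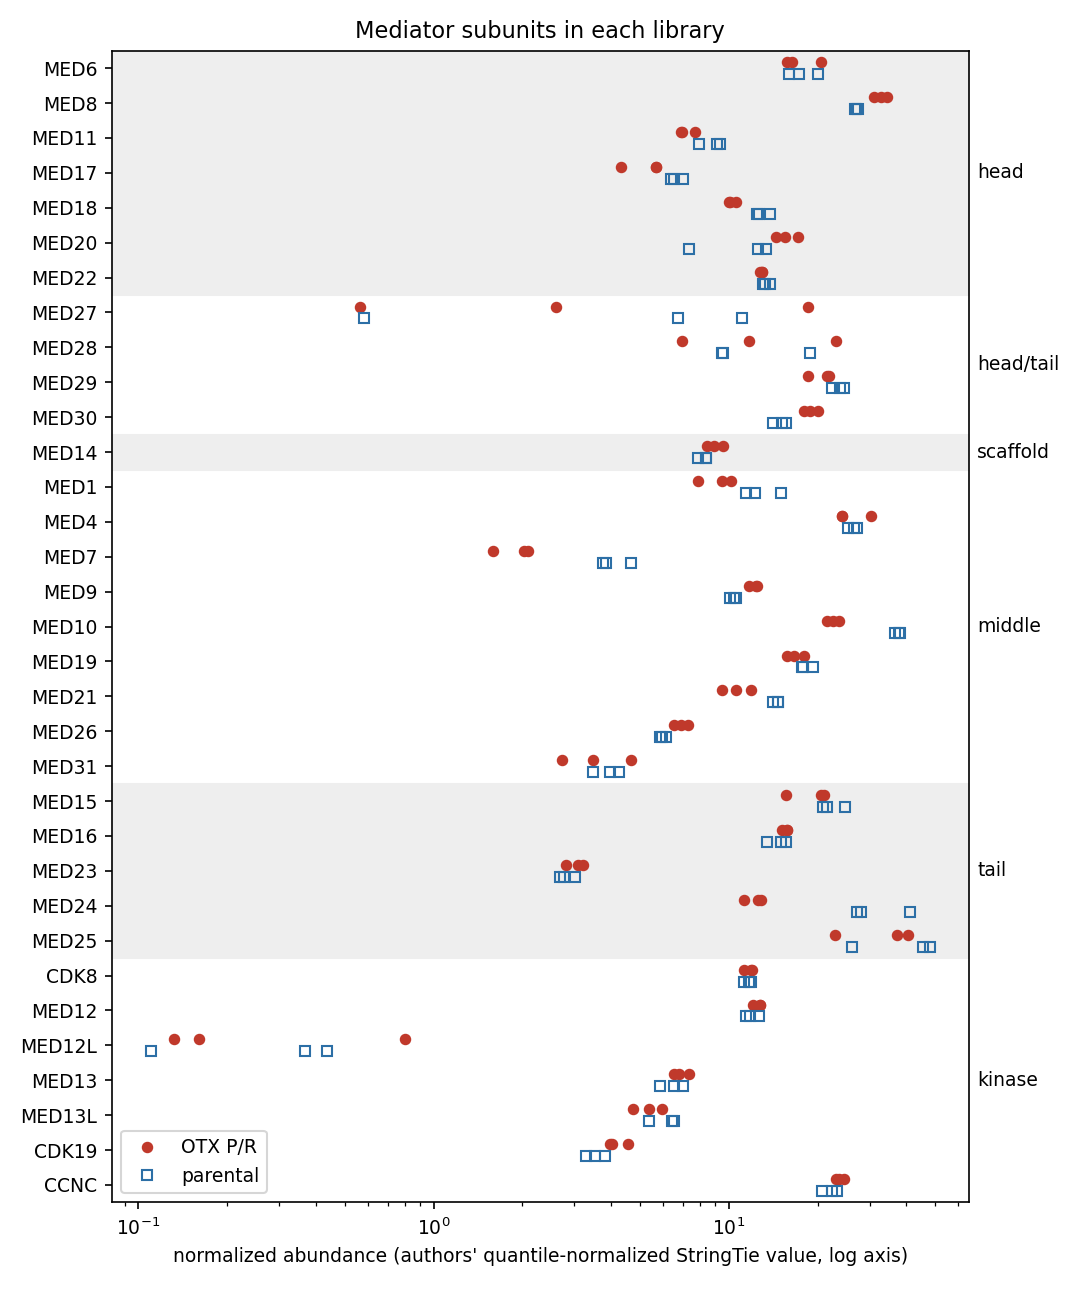
Normalized abundance (log axis) of each Mediator gene in the 3 OTX P/R libraries (filled circles) and the 3 parental libraries (open squares), grouped by module as named at the right. MED24, MED7 and MED10 form separate clusters of points for the groups, and MED27 and MED12L spread widely within both groups.

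**Figure D2:**
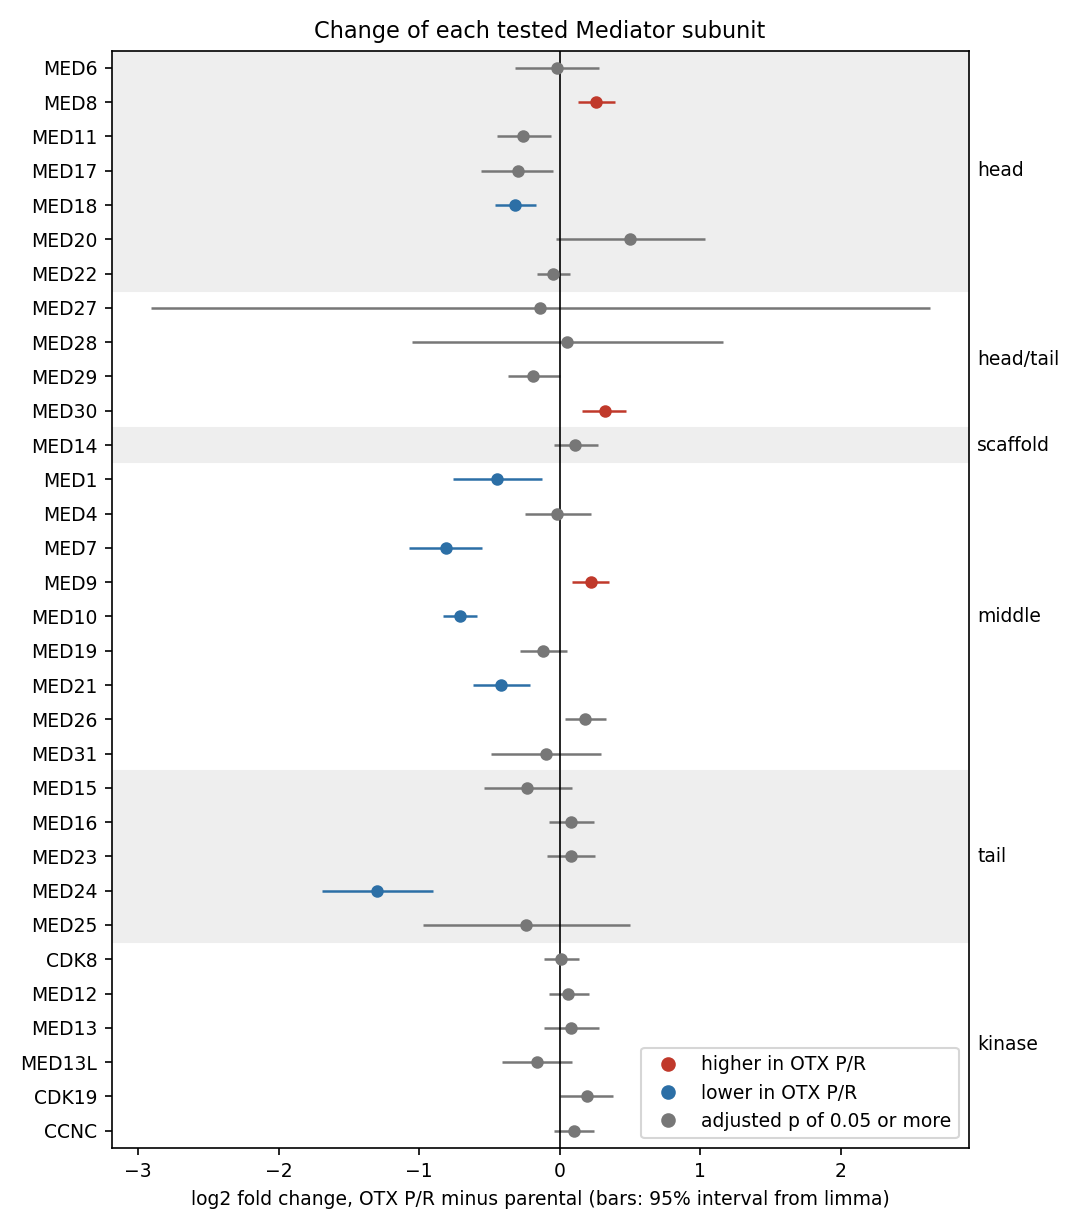
Log2 fold change of the 32 tested subunits, OTX P/R minus parental, with the 95% interval from limma; colours show the calls. The points farthest to the left are MED24 at -1.30, MED7 at -0.81 and MED10 at -0.71, and the points of the kinase module lie between -0.16 and 0.19.

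The tail module holds the largest change, and 1 of its 5 subunits passed, or 20.0%, beside 36.1% of all tested genes. MED24, a tail subunit that helps hold the tail together and binds next to MED16 and MED23, stood at 12.6, 11.3 and 12.9 in OTX P/R replicates 1, 2 and 3, against 41.0, 28.0 and 27.1 in parental replicates 1, 2 and 3. The groups were far apart, and parental replicate 1 was well above the other parental libraries. MED24 fell to 38.2% of the parental mean, with means of 12.2 ± 0.845 in OTX P/R cells and 32.0 ± 7.78 in parental cells (SD, n = 3 each), a change of -1.30 ± 0.16 SE on the log2 scale and a limma adjusted p = 0.00175. It passed with each library left out in turn, at log2 fold changes of -1.40 to -1.11. In the annotation MED24 overlaps THRA, a nuclear receptor gene on the opposite strand, which was also lower (log2 fold change -0.63), and since the strand setting of the authors' counting is not given, reads of the overlap cannot be told apart.

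The other tail subunits did not pass. MED25, a tail subunit that binds activators such as ATF6, had the highest mean of all subunits, with 22.9, 37.2 and 40.5 in OTX P/R libraries and 45.5, 47.9 and 26.2 in parental libraries. One library of each group was far below its fellows, and the groups overlapped. MED15, the docking site of the sterol factor SREBP, averaged 19.1 ± 3.01 in OTX P/R cells and 22.4 ± 2.15 in parental cells, and 8 pseudogenes carry its name in the annotation, so its reads may be shared. MED16 averaged 15.6 ± 0.325 in OTX P/R cells and 14.7 ± 1.07 in parental cells. MED23, which receives the MAPK-responsive factor ELK1, had the lowest mean of the tested subunits over the 6 libraries together, at 3.04 ± 0.200 in OTX P/R cells and 2.82 ± 0.169 in parental cells.

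The middle module had the most calls, with 4 of its 9 subunits lower and 1 higher. That is 55.6% of the module, beside 36.1% of all tested genes, and differences between modules were not tested. MED7 and MED21 form the flexible hinge of this module. MED7 read 2.09, 2.03 and 1.59 in OTX P/R libraries, against 3.75, 3.85 and 4.67 in parental libraries. The groups did not overlap, and MED7 fell to 46.5% of the parental mean (log2 fold change -0.81 ± 0.11 SE, limma adjusted p = 0.00223). MED7 overlaps HAVCR2, an immune checkpoint receptor gene on the same strand, which was lower as well (log2 fold change -0.78), and reads of the overlap cannot be told apart. MED21 read 11.9, 10.6 and 9.48 in OTX P/R libraries, against 14.7, 14.7 and 14.1 in parental libraries. It fell by 0.42 on the log2 scale, with no overlap between the groups (interval -0.62 to -0.21, limma adjusted p = 0.0112).

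MED10, a middle subunit that contacts the scaffold MED14, had the tightest groups among the larger changes. Its values were 22.5, 23.6 and 21.6 in OTX P/R libraries, against 36.7, 38.1 and 37.7 in parental libraries. The gap between the groups was many times the spread inside them, with means of 22.6 ± 1.00 in OTX P/R cells and 37.5 ± 0.709 in parental cells (SD, n = 3 each; log2 fold change -0.71 ± 0.05 SE, limma adjusted p = 1.78e-04).

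MED1, the subunit that docks nuclear receptors and also binds GATA1 in blood cells, read 9.52, 10.2 and 7.85 in OTX P/R libraries, against 15, 11.4 and 12.3 in parental libraries. The groups did not overlap, but the nearest libraries were close (log2 fold change -0.45 ± 0.13 SE, limma adjusted p = 0.0414). This call was lost without OTX P/R replicate 1, 2 or 3 (adjusted p = 0.0830, 0.0510 and 0.101) and without parental replicate 1 or 3 (0.0911 and 0.0832). MED9, another middle subunit, went the other way, with 11.7, 12.4 and 12.5 in OTX P/R libraries and 10.1, 10.4 and 10.6 in parental libraries (log2 fold change 0.22 ± 0.05 SE, limma adjusted p = 0.0195). Its groups did not overlap, and its call was lost without OTX P/R replicate 2 or 3 (0.0695 and 0.0663) or parental replicate 1 (0.0505).

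The remaining 4 middle subunits did not pass. MED26, which brings elongation factors to the polymerase, averaged 6.91 ± 0.369 in OTX P/R cells and 5.96 ± 0.158 in parental cells, without overlap, at a limma adjusted p = 0.0582. MED4 averaged 26.2 ± 3.54 in OTX P/R cells and 26.4 ± 0.844 in parental cells. MED19, a contact of the repressor REST, had a log2 fold change of -0.12 and MED31 one of -0.10. MED31 overlaps TXNDC17 on the opposite strand, which averaged 18.8 in OTX P/R cells and 17.5 in parental cells. Reads of that overlap cannot be told apart. The values of the 9 middle subunits added up to 107, 113 and 110.0 in OTX P/R libraries and to 133, 135 and 134 in parental libraries. These sums did not overlap, and most of the gap is that of MED10, the most abundant middle subunit of the parental line.

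**Figure D3:**
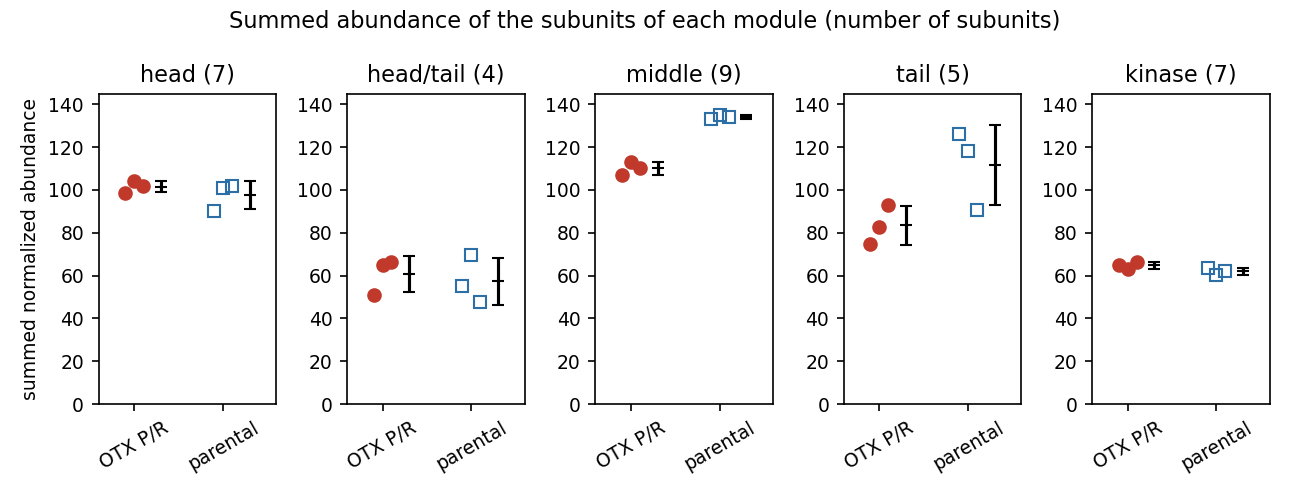
Summed normalized abundance of the subunits of each module in OTX P/R (filled circles) and parental (open squares) libraries, with the mean and SD (n = 3) beside each group; the number of subunits is in brackets. The middle module lies at 107 to 113 in OTX P/R libraries, below 133 to 135 in parental libraries, and the groups of every other module with more than 1 gene overlap.

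In the head, which grips the polymerase, 1 of 7 subunits was higher and 1 was lower. These are 28.6% of the module, beside 36.1% of all tested genes. MED8, which anchors the movable jaw of MED18 and MED20, read 32.8, 31.0 and 34.4 in OTX P/R libraries, against 27.0, 26.8 and 27.5 in parental libraries. All OTX P/R values were above all parental values (log2 fold change 0.26 ± 0.05 SE, limma adjusted p = 0.0108). MED18 read 10.6, 10.1 and 10 in OTX P/R libraries, against 12.5, 13.8 and 12.7 in parental libraries. It fell by 0.32 on the log2 scale, again with no overlap (limma adjusted p = 0.00867). Its partner MED20 read 14.5, 17.1 and 15.5 in OTX P/R libraries and 7.32, 13.4 and 12.6 in parental libraries, where parental replicate 1 was far below the other libraries. Its groups did not overlap, yet MED20 missed the threshold (limma adjusted p = 0.123) at a log2 fold change of 0.50 with an interval of -0.03 to 1.03, and without that library its log2 fold change was 0.25.

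The other head subunits did not pass, and 3 of these had separate groups, as had 51.6% of all tested genes. MED17, the central subunit of the head, averaged 5.21 ± 0.772 in OTX P/R cells and 6.62 ± 0.333 in parental cells (limma adjusted p = 0.0696). MED11 averaged 7.18 ± 0.444 in OTX P/R cells and 8.79 ± 0.756 in parental cells, just beyond the threshold (limma adjusted p = 0.0501), and passed without parental replicate 1 (0.0256). MED22, the partner of MED11, differed less than any of these, at 12.9 ± 0.112 in OTX P/R cells and 13.4 ± 0.358 in parental cells. MED6 averaged 17.5 ± 2.57 in OTX P/R cells and 17.8 ± 2.01 in parental cells, with overlapping groups.

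The subunits at the border of head and tail included 1 that rose. MED30, which has no counterpart in budding yeast, read 20.0, 18.0 and 18.9 in OTX P/R libraries, against 14.1, 15.6 and 15.2 in parental libraries. The groups were apart (log2 fold change 0.32 ± 0.06 SE, limma adjusted p = 0.0110). MED29 averaged 20.6 ± 1.75 in OTX P/R cells and 23.6 ± 1.09 in parental cells and did not pass (limma adjusted p = 0.101).

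MED27 and MED28 varied so much between libraries of the same line that a difference between the lines could not be seen. MED27 read 0.563, 2.60 and 18.6 in OTX P/R replicates 1, 2 and 3, against 6.72, 11.1 and 0.582 in parental replicates 1, 2 and 3. The highest OTX P/R library was 33.0 times the lowest, and the highest parental library 19.1 times the lowest. Among the 10741 tested genes 1 gene had a larger within-group SD on the log2 scale, and the interval of the change, from -2.91 to 2.63, allows large differences in both directions. MED28 read 11.7, 23.0 and 6.96 in OTX P/R libraries and 9.53, 18.8 and 9.46 in parental libraries, a wide range in both lines. In the annotation 8 pseudogenes carry the name of MED28, so its reads may be shared between copies. CDK8, MED6, MED13 and MED14 have 1 named pseudogene each. The within-group SDs of MED28 and MED25 ranked at percentiles 98.8 and 95.9 among the tested genes, and that of MED20 at 90.8. The lowest values of MED25 and of MED27 came from the same libraries, OTX P/R replicate 1 and parental replicate 3, which was noticed after the values were seen. For the subunits as a whole the spread was ordinary, with a median within-group SD of 0.10, against 0.11 over all tested genes.

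**Figure D4:**
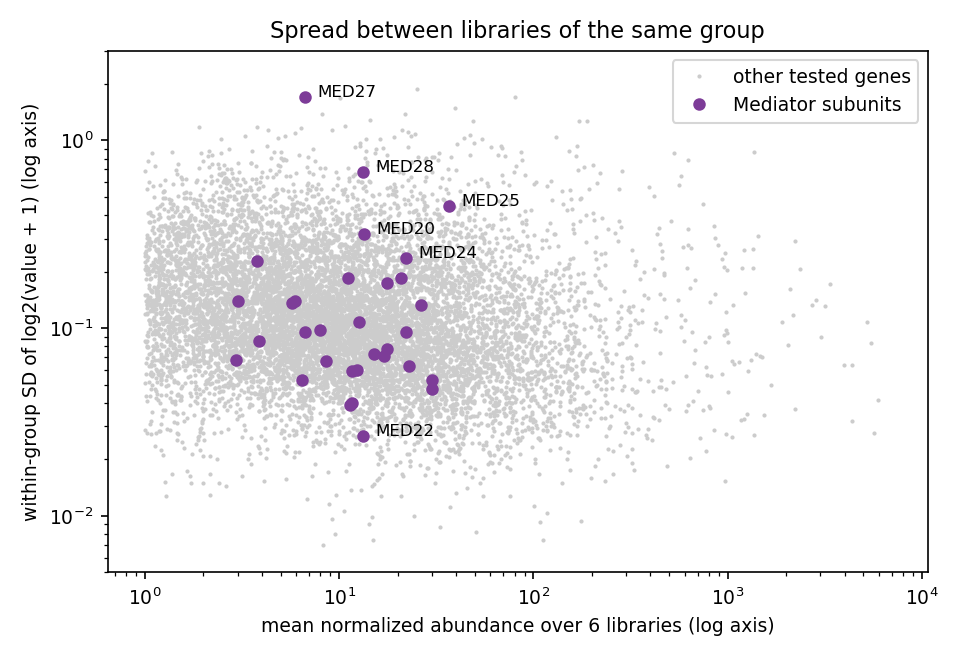
Within-group SD of log2(value + 1) against mean abundance over the 6 libraries (both axes logarithmic) for the Mediator subunits and the other tested genes; 1 gene with an SD under 0.005 lies outside the axis. MED27, at a mean of 6.69, is at the upper edge of the cloud, MED28 and MED25 are near it, and most subunits lie within the bulk of genes.

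The 6 tested genes of the kinase module and the scaffold showed no call, while 36.1% of all tested genes passed. Differences between modules were not tested. CDK8 read 12, 11.3 and 11.9 in OTX P/R libraries and 11.7, 11.3 and 11.9 in parental libraries, which overlap almost completely. Its log2 fold change was 0.01 with an interval of -0.11 to 0.14. CDK19, the alternative kinase, read 4.01, 3.97 and 4.55 in OTX P/R libraries and 3.80, 3.29 and 3.53 in parental libraries. These groups did not overlap, but CDK19 missed the threshold (limma adjusted p = 0.108), with a log2 fold change of 0.19 and an interval of -0.00 to 0.38. CCNC, cyclin C, averaged 23.7 ± 0.722 in OTX P/R cells and 22.1 ± 1.24 in parental cells. MED12, which activates the kinase, averaged 12.6 ± 0.415 in OTX P/R cells and 12 ± 0.650 in parental cells. MED13, which tethers the module to the core, averaged 6.89 ± 0.416 in OTX P/R cells and 6.46 ± 0.571 in parental cells, and its paralog MED13L averaged 5.35 ± 0.603 in OTX P/R cells and 6.10 ± 0.636 in parental cells. Over the 6 tested genes of this module the intervals stayed between -0.41 and 0.38, so a fold of 1.5 or more lies outside the interval of each on the log2(value + 1) scale. MED14, the scaffold, averaged 8.97 ± 0.563 in OTX P/R cells and 8.21 ± 0.305 in parental cells, without overlap and without a call (limma adjusted p = 0.222). Of the 23 subunits without a call over the whole complex, 19 had an interval that excludes a fold of 1.5 in both directions on the log2(value + 1) scale, the exceptions being MED20, MED25, MED27 and MED28. That count depends on the pseudocount, since with 0.1 in place of 1 the low genes MED17 and MED31 were at -0.35 ± 0.12 SE and -0.13 ± 0.20 SE, and their intervals are wider.

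The paralog choices inside the kinase module were compared as ratios within each library. The ratios printed are of the values themselves, and the tests used log2 ratios with 1 added to each value. CDK8 was 2.99, 2.86 and 2.63 times as abundant as CDK19 in OTX P/R libraries and 3.09, 3.43 and 3.37 times in parental libraries. All OTX P/R ratios were lower, and the exact two-sided permutation test gave p = 0.1, the smallest that 3 libraries against 3 allow, and 0.3 adjusted over the 3 ratios. MED12L was at 0.801, 0.161 and 0.132 in OTX P/R libraries and 0.437, 0.110 and 0.367 in parental libraries, so MED12 exceeded it by at least 16.0 times in every library. The ratio of MED13 to MED13L was 1.43, 1.37 and 1.1 in OTX P/R libraries and 1.09, 0.903 and 1.21 in parental libraries, with overlapping groups and an exact permutation p = 0.200.

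Several of the subunits that fell lie among chromosomal neighbours that were lower as well. For each tested subunit the median log2 fold change of the 24 nearest tested genes was taken, 12 on either side, with the order of genes from GENCODE v29. This median was -0.3 or lower around 4 of 32 subunits, MED24, MED1, MED7 and MED10, and around 5.15% of all tested genes that could be placed. All 4 of these subunits were called lower. Around MED24 on chromosome 17 the median was -0.77, and 23 of the 24 neighbours were lower and none higher. The adjacent genes PSMD3, a proteasome subunit, and THRA had log2 fold changes of -0.80 and -0.63. MED24 was below the median of its neighbours by a further 0.52, a member value of -1.30 against -0.77. MED1 lies on the same stretch, with 8 tested genes between it and MED24, all of them lower, and 22 of its 24 neighbours were lower.

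Around MED7 on chromosome 5 the neighbour median was -0.77, with 19 of 24 neighbours lower and 1 higher, and the value of MED7 itself was -0.81. Around MED10, elsewhere on chromosome 5, the median was -0.39, with 11 neighbours lower and 3 higher, and MED10 itself was at -0.71. With 5 genes on either side instead of 12, the median around MED10 was -0.09. MED21 and MED18, which also fell, have neighbours with medians of 0.07 and 0.10. The genes directly beside MED18, SESN2 and PHACTR4, had log2 fold changes of -0.43 and -0.22, and those beside MED21, TM7SF3 and STK38L, had 0.01 and -0.09. Of the subunits that rose, MED8 and MED9 have neighbour medians of 0.30 and 0.26 and MED30 one of -0.03. With 5 genes on either side the medians were 0.53 around MED8 and 0.63 around MED9, and with 25 they were 0.15 and 0.22. A median of 0.3 or more before rounding was found around 1 of the 32 subunits, MED11, and around 3.41% of all tested genes that could be placed. MED11 is an opposite case, at -0.26 among neighbours with a median of 0.31. Over the 32 subunits the change of the member and the neighbour median had a Pearson r of 0.74, a description over genes that share libraries and partly share neighbours. Over the 28 subunits other than MED24, MED1, MED7 and MED10 the r was 0.17. Those 4 were left out for their low neighbour medians, which narrows the range and can by itself lower r. The fall in r therefore cannot show that the relation rests on those 4.

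**Figure D5:**
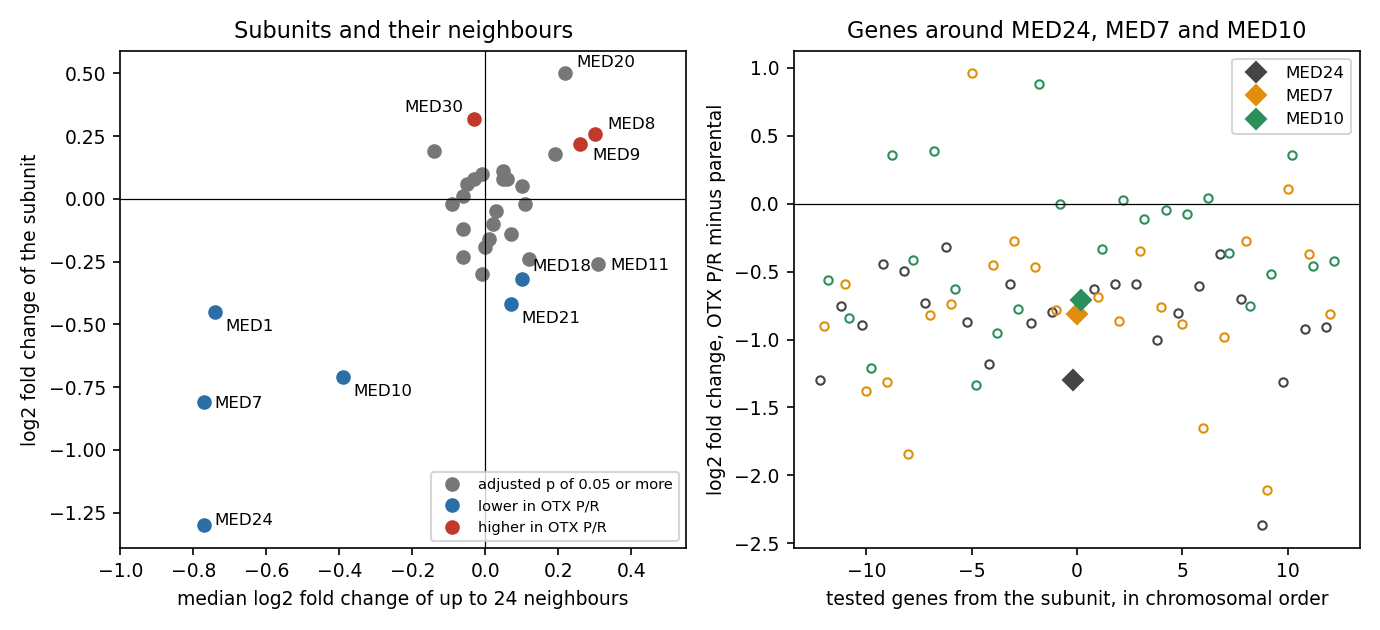
Left, log2 fold change of each tested subunit against the median log2 fold change of its neighbours (12 tested genes on either side); right, the log2 fold changes of the genes around MED24, MED7 and MED10 (open circles) by their order from the subunit (diamonds). MED24, MED1, MED7 and MED10 lie apart at neighbour medians of -0.39 or lower, and all circles around MED24 are below 0.

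The promoters of MED24, MED1, MED7 and MED10 are shown because these are the subunits whose neighbours had a median of -0.3 or lower. The sequences are RefSeq windows on GRCh38.p14, from 250 bases before to 50 bases after the start of the gene, matched by symbol for 25 of the 33 members. All 4 genes lie on the minus strand, and the windows are read 5′ to 3′ in the direction of the gene: chr17:40054359-40054658 for MED24, chr17:39451214-39451513 for MED1, chr5:157142816-157143115 for MED7 and chr5:6378498-6378797 for MED10. Capitals mark matches on either strand to the short motifs listed after the sequences.
MED24: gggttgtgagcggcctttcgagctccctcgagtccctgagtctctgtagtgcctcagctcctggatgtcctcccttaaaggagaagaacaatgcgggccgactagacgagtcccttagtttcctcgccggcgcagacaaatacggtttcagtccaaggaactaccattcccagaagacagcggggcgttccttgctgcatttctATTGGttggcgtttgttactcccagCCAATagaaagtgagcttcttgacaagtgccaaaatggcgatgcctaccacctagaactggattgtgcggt
MED1: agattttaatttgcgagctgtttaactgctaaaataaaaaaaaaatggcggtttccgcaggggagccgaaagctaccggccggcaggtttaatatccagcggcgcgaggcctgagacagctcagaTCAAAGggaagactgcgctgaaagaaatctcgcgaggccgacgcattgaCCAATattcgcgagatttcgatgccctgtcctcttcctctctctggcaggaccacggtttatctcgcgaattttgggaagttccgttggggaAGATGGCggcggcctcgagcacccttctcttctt
MED7: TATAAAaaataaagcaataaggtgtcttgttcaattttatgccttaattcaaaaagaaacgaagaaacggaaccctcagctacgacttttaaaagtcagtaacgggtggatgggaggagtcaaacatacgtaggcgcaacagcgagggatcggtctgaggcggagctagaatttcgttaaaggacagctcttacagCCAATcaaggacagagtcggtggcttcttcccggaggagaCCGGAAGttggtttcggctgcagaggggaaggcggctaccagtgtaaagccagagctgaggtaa
MED10: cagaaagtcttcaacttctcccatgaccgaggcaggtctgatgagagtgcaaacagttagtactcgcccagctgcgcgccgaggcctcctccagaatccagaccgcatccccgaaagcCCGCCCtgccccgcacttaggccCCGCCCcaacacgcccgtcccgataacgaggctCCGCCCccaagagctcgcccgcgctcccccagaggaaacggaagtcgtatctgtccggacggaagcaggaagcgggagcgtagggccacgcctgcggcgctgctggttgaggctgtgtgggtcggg

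The motifs searched were the E-box CACGTG of MYC and MAX, the ETS motif CCGGAAG, the CCAAT box, the GC box GGGCGG of SP and KLF factors, the YY1 core AGATGGC, the NRF1 core GCATGCG, the TATA box TATAAA and the TCF/LEF core CTTTGA, none of which overlapped another in the windows shown. MED24 holds a pair of CCAAT boxes in opposite orientation, MED1 a CCAAT box, a TCF/LEF core and a YY1 core, MED7 an ETS motif, a CCAAT box and, at the far end of the window, TATAAA, and MED10 a row of 3 GC boxes. No motif was common to the 4 windows. Members and tested genes were each represented by 1 window per symbol, the first listed, while the set of all promoters holds every window. Over the 25 matched members the YY1 core was found in 24% of promoters, or 6 members, beside 5.4% of all 35116 promoters of that length and 8.1% of the 8145 promoters of tested genes. The ETS motif was in 28.0% of members, beside 10.3% and 21.8%, and the CCAAT box in 40.0%, beside 34.6% and 37.5%. The GC box was in 60.0% of members, beside 45.0% and 71.2%. The E-box was in 8.0% of members, beside 7.3% and 10.7%, and the TCF/LEF core in 12%, beside 12.9% and 8.5%. The NRF1 core was in 4.0%, beside 3.9% and 7.0%, and the TATA box in 8.0%, beside 11.5% and 4.8%. A match describes the letters only, and no binding was measured.

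The partners of Mediator at promoters and enhancers changed about as often as genes in general. Of 78 tested genes in 6 lists, 12 were higher and 12 were lower, or 30.8%, beside 36.1% of all tested genes. The count of higher genes fell to 7 or 8 with any 1 of the 6 libraries left out, and that of lower genes was 10 to 15. Of 12 RNA polymerase II subunits 2 were higher and 10 did not pass. POLR2J was at 62.6 ± 2.33 in OTX P/R cells and 32.3 ± 0.694 in parental cells (SD, n = 3 per group), a gene with near-identical copies between which reads can be split, and POLR2C rose by 0.16 on the log2 scale and passed in 1 of the 6 fits with a library left out.

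Of 17 general transcription factor genes tested 2 were higher, 1 was lower and 14 did not pass. GTF2A1 of TFIIA rose by 0.38 on the log2 scale and passed in 4 of the 6 fits with a library left out, ERCC2 of TFIIH rose by 0.18 and passed in 1 of them, and GTF2E2 of TFIIE fell by 0.23 on the log2 scale. Of 15 TAF subunits of TFIID, the factor that recognizes promoters, 2 were higher, 2 were lower and 11 did not pass. TAF10 averaged 20.7 ± 2.36 in OTX P/R cells and 42.5 ± 6.02 in parental cells, and TAF7 fell by 0.30 on the log2 scale. TAF4B rose by 0.57 and TAF6 by 0.66, TAF6 with a call in 1 of the 6 fits with a library left out. Of 10 cohesin genes, which act with Mediator in enhancer loops, SMC1A fell by 0.43 on the log2 scale, STAG1 rose by 0.43 and 8 did not pass.

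Of 18 transcription factors tested that are known to bind a Mediator subunit, 3 were higher, 6 were lower and 9 did not pass. RXRA, the common partner of nuclear receptors that work through MED1, was at 0.0329 ± 0.00325 in OTX P/R cells and 4.02 ± 0.285 in parental cells. NR3C1, the glucocorticoid receptor, was at 0.646 ± 0.614 in OTX P/R cells and 4.28 ± 0.312 in parental cells. RXRA and NR3C1 averaged under 1 in OTX P/R cells and reached the minimum mean only through the parental libraries. They could therefore be called only as lower, and they are counted in the 6 here and in the 12 lower genes over all lists. SMAD2, a TGF-beta effector, averaged 6.85 ± 1.55 in OTX P/R cells and 14.2 ± 4.01 in parental cells and passed in 2 of the 6 fits with a library left out. VDR, the vitamin D receptor, rose by 0.65 on the log2 scale and ETV4 by 0.36, ETV4 with a call in 4 of the 6 fits with a library left out. Of 6 regulators and substrates of the kinase module 2 were higher, 2 were lower and 2 did not pass. STAT3 averaged 10.2 ± 0.731 in OTX P/R cells and 15.4 ± 0.718 in parental cells and fell by 0.55 on the log2 scale. NOTCH1 rose by 0.42 and SKP2 by 0.25, NOTCH1 with calls in 2 of the 6 fits with a library left out and SKP2 with calls in 0 of them.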

How the data were processed

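Total RNA libraries of 3 OTX P/R and 3 parental cultures were compared, with groups taken from the sample titles. The deposited values are a signal, a linear abundance that the authors made with StringTie; whether it is FPKM or TPM is not given in the sources used here. Trim Galore, HISAT2, StringTie and the hg19 build are named in the submitters' processing notes, without versions. Sorted, the libraries held nearly the same values (differences up to 0.243% from 1 upward), so the table is quantile-normalized; depth is unknown and no counting intervals are given. Of 19785 rows, 6 with a missing value were left out.

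Values were transformed as log2(value + 1), a scale that understates the change of low genes, and the 10741 genes whose mean reached 1 were fitted with limma 3.58.1 in R 4.3.3 (lmFit, eBayes with a trended prior, two-sided, Benjamini-Hochberg over all tested genes; called at an adjusted p under 0.05). Means and SDs are linear. The labels call the libraries biologic replicates without naming their source cultures, so p-values measure the spread between these libraries. All members are described. Of each pathway list, up to 3 called genes per direction with the largest change are named. Named as well are the tested genes next to the most changed member, MED24, and those next to MED18 and MED21. Some genes of the lists are counted but not reported by name here. The members and lists were chosen with earlier results of these data known. Gene order and overlaps came from GENCODE v29 on GRCh38, matched by identifier for 19528 rows and not used for coordinates. Alternatives were the pseudocount, the filter, the prior, median centring, the replicate block and each library left out. The fit was tested on simulated data. Tables were made with Python 3.11.15, pandas 2.3.3, NumPy 2.4.6 and plots with Matplotlib 3.10.9.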

Additional observations from a re-analysis of the deposited data

How the results depend on the processing

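Depth is unknown, so the precision of low genes such as MED12L and MED7 cannot be stated from counts. The count of all called genes stayed within 1.5 times of 3879 under every alternative run, from 2790 with a minimum mean of 5 to 4836 without a filter. These filters change the number of genes tested. The share called was 37.0% with a minimum mean of 5 and 27.8% without a filter, against 36.1% in the main fit. With 1 library left out the count was 3019 to 3483. MED24, MED10, MED21, MED18 and MED8 were called under every alternative; MED7 was called wherever it was tested and was not tested with a minimum mean of 5, and MED30 was called except with the replicate block. With a library left out, the subunits called higher were 2 to 3 and those called lower 5 to 6, and the higher genes over the pathway lists 7 to 8, against 12 with all libraries. The replicate numbers did not pair the libraries (correlations of the deviations of same-numbered libraries -0.065, -0.028 and -0.000); with the replicate number as a block, 1 subunit was higher and 5 were lower, and MED1 (adjusted p = 0.0635), MED30 (0.0502) and MED9 (0.0514) were lost, of 3159 genes called. MED1 was also lost without a filter (0.0670). MED11 passed with a minimum mean of 5 (0.0492) and with a prior without trend (0.0487), and MED26 passed with a prior without trend (0.0496). Of the subunits without a call, 6 changed sign with some library left out, as did CDK8: the log2 fold changes ranged from -0.01 to 0.04 for CDK8, -0.51 to 0.01 for MED25, -1.16 to 0.67 for MED27, -0.36 to 0.43 for MED28, -0.26 to 0.04 for MED31, -0.12 to 0.04 for MED4 and -0.13 to 0.06 for MED6. No called subunit changed sign under any alternative run. With 1 added to each value, the log2 ratio of MED12 to MED12L differed by 0.03 between the lines and by -0.10 to 0.23 with a library left out. MED12L was under 1 in every library, so the added 1 damps these differences. Without it, MED12 was 16.0, 75.3 and 96.9 times MED12L in OTX P/R replicates 1, 2 and 3. In parental replicates 1, 2 and 3 it was 27.1, 115 and 31.2 times MED12L. Also with 1 added, the log2 ratio of CDK8 to CDK19 differed by -0.17 and by -0.21 to -0.13. That of MED13 to MED13L differed by 0.24 and by 0.15 to 0.34. The causes of these shifts were not tested.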
